A study of Mus musculus with 12 samples.

Results

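The effect of methotrexate on the proximal jejunum of TLR2 knockout mice was described from 6 of the 12 arrays of the series, 3 from methotrexate-treated and 3 from untreated knockout mice, 1 mouse per array. The members are the labelled arrays, and the comparison ran over the 18820 genes read by a probe set that the platform annotation pairs with 1 gene symbol. The labels give the knockout strain as B6.129-Tlr2tm1Kir/J, and both knockout groups carry that allele. The other 6 arrays, from wild-type C57BL6/J mice with and without the drug, entered the estimate of the spread between mice and the test, over all genes, of whether the drug effect differed between genotypes, from which 8 genes are described. Treated mice received intraperitoneal methotrexate on 4 days, in a daily dose of 40 mg per kg of body weight, and were sacrificed on day 7. For the untreated mice the labels record no treatment, and neither a vehicle injection nor a day of sacrifice, so the drug cannot be told apart from injection and time of sampling. The question was what intestinal mucositis, the damage that chemotherapy does to the gut lining, looks like in animals without TLR2, the receptor that senses bacterial lipoproteins.

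The jejunal lining is renewed from stem cells in the crypts. Their daughters divide, move up the villus and mature into enterocytes, whose brush border digests and takes up nutrients, while goblet, enteroendocrine and tuft cells arise from the same stem cells. Methotrexate blocks dihydrofolate reductase, which keeps folates in the reduced form needed to make thymidylate and purines, so dividing crypt cells are hit first, and the villus then loses its supply of new cells until the crypts recover.

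The lowest fitted change was that of Lct, which encodes lactase, and the highest that of Saa3, which encodes an acute-phase serum amyloid A protein. The 250 bases before their start sites are shown because the following results turn on these ends of the scale. Capitals mark every match, on either strand, to 1 of 7 motifs that were searched. Both sequences are from RefSeq, build GRCm38.p6, read 5′ to 3′ along the gene, on the minus strand of chr1:128328319-128328568 for Lct and chr7:46715677-46715926 for Saa3.
Lct: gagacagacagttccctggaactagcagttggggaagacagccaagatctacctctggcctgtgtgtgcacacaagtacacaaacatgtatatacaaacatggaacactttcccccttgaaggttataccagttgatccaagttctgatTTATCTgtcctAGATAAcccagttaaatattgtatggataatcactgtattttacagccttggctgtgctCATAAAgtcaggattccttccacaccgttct
Saa3: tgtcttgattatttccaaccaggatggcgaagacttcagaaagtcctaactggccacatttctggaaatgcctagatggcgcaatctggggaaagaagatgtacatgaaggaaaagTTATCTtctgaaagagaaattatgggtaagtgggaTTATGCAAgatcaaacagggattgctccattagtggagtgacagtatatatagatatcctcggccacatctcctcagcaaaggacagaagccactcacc
Counted back from the start site, the Lct window held the letters AGATAA, bound by GATA factors, at -90 to -85 and, on the opposite strand, at -101 to -96. It held the CDX letters, TTTATG, on the opposite strand at -31 to -26. The Saa3 window held the GATA letters on the opposite strand at -134 to -129 and the C/EBP letters, TTGCNNAA, on the opposite strand at -99 to -92. Of all 27025 genes with a promoter in the table, 11.4% held the GATA letters in the 250 bases before a start site. For the CDX letters the share was 12.4% and for the C/EBP letters 10.8%. Among the 15 largest rises, 11 had a promoter in the table and 5 of these held the C/EBP letters, against 4 of the 14 among the 15 largest falls. The HNF4 letters, CAAAGTCCA, which 0.451% of genes held, were found in 0 of the 11 and in 2 of the 14, those of H2-T3 and Treh. The letters searched for HNF1 (GTTAATNA), for NF-kB (GGGNNTTCC) and for STAT (TTCNNNGAA) stood in neither printed window. Of all genes 2.73%, 5.61% and 8.13% held them. They were found in 0, 0 and 0 of the 11 rises and in 1, 0 and 1 of the 14 falls. The GATA letters were found in 1 of the 11 and 2 of the 14, and the CDX letters in 2 and 4. A match is a description of letters and not of a bound factor.

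Values are log2 signals, 1 unit being a doubling, and a value after ± is the standard error of limma's fit, always with 3 mice per group. A gene is said to have risen or fallen where limma's p-value, adjusted over the 18820 genes after Benjamini and Hochberg, was under 0.05. Apoa4, a gene of proximal jejunum, was high in the untreated arrays, at 12.85, 12.74 and 12.79. The ileal gene Fabp6 stood at 2.46, 2.46 and 2.50 and the colonic gene Car1 at 3.49, 2.65 and 2.83. Longer lists of regional markers set untreated replicate 1 apart, as given in the next paragraph. The probe set of Tlr2 read 4.36, 5.02 and 5.01 in untreated and 6.18, 5.46 and 5.28 in treated mice. The median of all probe sets in the knockout arrays was 4.49 to 4.56, and only untreated replicate 1 lay below it. Wild-type values of Tlr2 are not compared here. Whether its probe set reads a stretch that the targeted allele still transcribes is unknown here, and genotypes are given as labelled. Arrays correlated at 0.972 to 0.990 within the untreated and 0.967 to 0.990 within the treated group, and at 0.927 to 0.948 between the groups.

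Replicate 1 of both knockout groups stood apart from the other 4 arrays. The mean of 16 pancreatic acinar genes was 5.59 in untreated replicate 1 and 12.11 and 12.21 in the other untreated arrays, and it was 4.37, 12.05 and 12.14 in the treated arrays. Of these 16 genes, 0 were called, with a median change of -0.46. Regional markers moved with the same arrays. The mean of 13 duodenal and proximal markers was 5.61, 8.70 and 8.85 in untreated and 5.43, 6.65 and 7.37 in treated mice, and that of 11 ileal markers was 7.14, 5.70 and 5.77 in untreated and 4.36, 4.52 and 4.53 in treated mice. The 10 genes that varied most among treated mice outside the acinar list, among them Reg2, Sycn, Cuzd1 and Tff2, were all lowest in replicate 1. That list does not hold every gene of pancreas, so these genes are not shown to vary apart from the acinar signal. Each count of list members was therefore also made without replicate 1 of both groups, and it is given that way where the number called in a direction moved by more than 1 gene and over 1.5 times. Of 54 gene lists with a median change of at least 0.5 in size, 53 had the same sign in the pair of first replicates and in the other 4 arrays. The exception was the duodenal and proximal markers. These lists were picked by their median over the same 6 arrays, so a shared sign was likely beforehand. Lists below that size were not counted. Among them the MHC class II genes changed sign, with a median of -1.62 in the first pair and 0.26 in the other 4 arrays. The part of tissue sampling in the results was not tested.

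**Figure D1:**
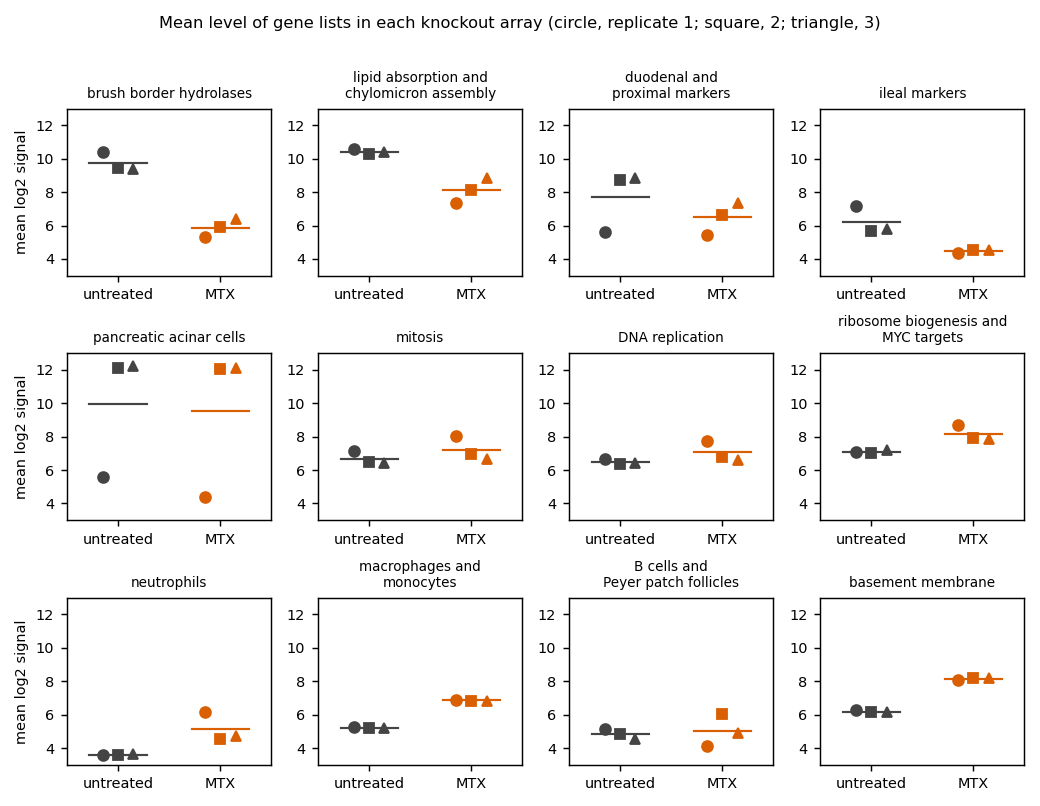
Mean log2 signal of the measured genes of 12 lists in each knockout array (vertical axis), untreated on the left and methotrexate-treated on the right of each panel. Circles are replicate 1, squares replicate 2 and triangles replicate 3, and the horizontal line is the group mean. The acinar panel shows both first replicates low, at 5.59 and 4.37, while the macrophage and basement membrane panels show 2 groups that do not overlap.

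Methotrexate was followed in the knockout jejunum by large falls among the genes of mature enterocytes and by rises among those of connective tissue, macrophages and acute-phase defence. Of 18820 genes, 34.8% were called, 18.8% higher and 16.0% lower, and these shares are the background for every count of list members below. The median change was -0.02 over all genes, 0.90 over the genes that rose and -0.87 over those that fell. At least 2-fold changes were 8.11% of genes higher and 6.72% lower. Beyond that, large falls outnumbered large rises: 93 genes rose and 234 fell by at least 3 on the log2 scale, and 9 rose and 38 fell by at least 5. The values of the 2 groups did not overlap for 44.6% of genes, and 33.7% were both called and free of overlap. Called genes were rare among dim ones. Of the 6574 genes with a mean below 4, 4.5% rose and 3.68% fell, whereas of the 2425 with a mean from 8 to 10, 21.2% rose and 30.8% fell. Centring each array on its own median moved the median change of all genes to -0.19 and the share of called genes that were higher from 54.0% to 37.3%. That setting is therefore given for some lists with small changes, but not for all of them. It also moved counts that are given below without it. Higher genes went from 6 to 3 for DNA replication and from 12 to 9 for targets of p53. Lower genes went from 7 to 9 for tuft cells. Olfactory receptor genes, which the gut hardly expresses, served as a yardstick for dim values. In 95% of them the mean signal was below 3.13 in untreated and 3.0 in treated mice. Of the 15 largest rises 2 had an untreated mean below that level, Saa3 among them, and of the 15 largest falls 3 had a treated mean below it. For such genes the low group is not shown to be above background, so the size of the change and its rank rest on a value that may be background alone.

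**Figure D2:**
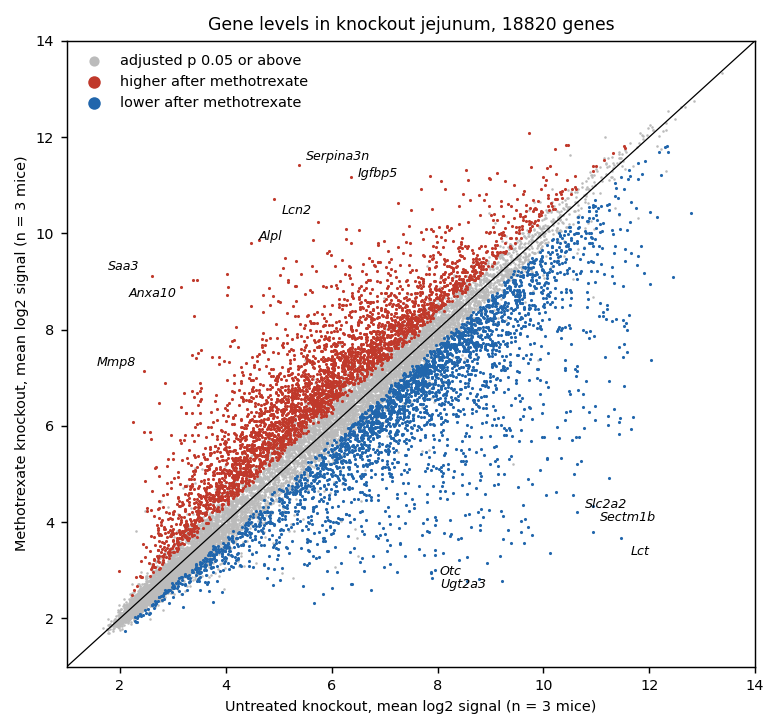
Mean log2 signal of each of 18820 genes in untreated (horizontal axis) and methotrexate-treated knockout mice (vertical axis), 3 mice each, with the line of equal levels. Red and blue points are genes called higher and lower by limma, grey points those not called. The named falls, among them Lct (-7.81), lie far below the line and the named rises, among them Saa3 (6.52), far above it.

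The digestive enzymes of the enterocyte surface were much lower. Of 19 brush border hydrolases 16 fell and 0 rose, with a median change of -3.84. Lct had log2 signals of 11.86, 11.25 and 11.29 in untreated and 3.88, 3.45 and 3.64 in treated mice. The groups lie far apart, and the treated values are dim. Lct fell by 7.81 ± 0.35 (adjusted p = 4.52e-08). Treh, the hydrolase of trehalose, fell by 6.06 ± 0.26, and Naaladl1, a peptidase that trims acidic dipeptides, fell by 6.08 ± 0.74. In untreated mice Naaladl1 was highest in replicate 1, at 11.48, 8.78 and 8.66, and its treated values were 3.28, 3.50 and 3.89. The sucrase-isomaltase gene Sis fell by 5.51 and the angiotensin-converting enzyme gene Ace by 2.33, both chosen after their values were seen. The mean over the 19 hydrolases was 10.42, 9.45 and 9.41 in untreated and 5.30, 5.92 and 6.39 in treated mice, so that treated replicate 1 was lowest.

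Nutrient carriers followed the same direction. Of 17 carriers of sugars, amino acids and peptides 13 fell and 0 rose, with a median of -3.79. Slc2a2, the basolateral exit route for glucose and fructose, read 10.42, 10.68 and 10.83 in untreated and 2.93, 4.32 and 5.38 in treated mice. It fell by 6.43 ± 0.45 (adjusted p = 1.01e-06), with treated replicate 3 the highest and replicate 1 the lowest. Slc6a20a, which carries proline, fell by 6.32 ± 0.18, and Slc28a1, which carries pyrimidine nucleosides, fell by 5.83 ± 0.21. The intestinal folate carrier Slc46a1 fell by 3.91 ± 0.41, from 10.02, 11.01 and 10.95 to 5.68, 6.99 and 7.59. By contrast Slc19a1, the carrier by which methotrexate itself enters most cells, changed by 0.13 and was not called (chosen after its values were seen).

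The scaffold under the brush border was lower too, with a smaller median change than the enzymes on it; that difference was not tested. Of 17 genes of microvillar cytoskeleton and tip links 16 fell and 0 rose, with a median of -2.02. Pdzk1, which anchors transporters, read 8.45, 7.78 and 7.62 in untreated and 4.07, 3.92 and 4.31 in treated mice and fell by 3.85 ± 0.28. The motor gene Myo1a fell by 3.20 ± 0.19 and Anks4b, part of the complex that joins microvillar tips, fell by 2.98 ± 0.17. Vil1, the actin bundler villin, stood at 11.16, 10.68 and 10.67 in untreated and 8.90, 8.30 and 8.72 in treated mice, so its transcript remained well detected in every treated mouse. It fell by 2.19 (chosen after its values were seen). Groups did not overlap for Pdzk1, Myo1a, Anks4b or Vil1.

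Genes of lipid uptake and lipoprotein assembly fell in 20 of 24 cases and rose in 2, with a median of -2.76. Apoc3, a regulator of triglyceride clearance, fell by 5.28 ± 0.66, and Npc1l1, the uptake receptor for cholesterol, fell by 4.70 ± 0.40. The paired sterol exporters Abcg5 and Abcg8 fell by 3.76 and 3.71. The exceptions were Plin2, a lipid droplet coat protein, which rose by 1.05 ± 0.16, and Abca1, which loads cholesterol onto high-density lipoprotein and rose by 1.56 ± 0.32. The treated mice were unequal in Apoa4, an apolipoprotein of chylomicrons chosen after its values were seen. It read 12.85, 12.74 and 12.79 in untreated and 7.86, 11.28 and 12.12 in treated mice, with treated replicate 1 well below the others. Its change was -2.37, but -1.09 without that array, and it was not called without any 1 of the untreated arrays (adjusted p from 0.0749 to 0.081 by limma) or with only the knockout arrays in the fit (adjusted p = 0.139 by limma). Of 18 genes of cholesterol synthesis 3 were higher and 3 lower, but 2 and 5 without replicate 1 of both groups, and 1 and 4 with arrays centred.

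Genes of drug metabolism, oxidative phosphorylation and fatty acid oxidation were lower as well. Of 16 cytochrome P450 genes of drug metabolism 14 fell and 1 rose, median -3.91, and of 25 conjugation enzymes and esterases 22 fell and 1 rose, median -3.35. Cyp2b10 read 10.76, 10.97 and 11.08 in untreated and 3.60, 4.75 and 4.65 in treated mice and fell by 6.60 ± 0.26. The exceptions were Cyp1b1, a P450 of connective tissue and vessel cells, which rose by 5.13 ± 0.18, and Akr1b8, an aldo-keto reductase, which rose by 3.69 ± 0.60. Oxidative phosphorylation fell in 31 of 32 genes, but by a median of only -0.77, and fatty acid oxidation in 18 of 21, median -1.05. Genes of glycolysis, a list that also holds enzymes of gluconeogenesis and fructose use, were mixed, with 4 of 19 higher, 9 lower and a median of -0.08, or -0.47 without replicate 1 of both groups. Fbp1 (fructose-bisphosphatase) fell by 5.59 ± 0.38, G6pc (glucose-6-phosphatase) fell by 5.55 ± 0.52 and Pck1 (phosphoenolpyruvate carboxykinase) fell by 4.37 ± 0.56. Of 13 genes of urea, citrulline, polyamine and glutamine metabolism 3 rose and 5 fell. Otc, of the citrulline route, fell by 5.96 ± 0.15, Cps1 fell by 4.57 ± 0.32 and Nags, which makes the activator of Cps1, fell by 3.68 ± 0.19, while glutamine synthetase, Glul, rose by 2.33 ± 0.26. Of 29 genes that handle metals and vitamins 12 fell and 1 rose. Cubn, the receptor for vitamin B12 bound to intrinsic factor, fell by 5.81 ± 0.58, and its untreated values of 10.81, 8.97 and 9.33 were highest in replicate 1.

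Transcription factors of the enterocyte changed unevenly. Of 29 such factors and nuclear receptors 18 fell and 1 rose, with a median of -1.31. Hnf4g, an activator of enterocyte genes, read 10.73, 10.43 and 10.47 in untreated and 6.46, 5.24 and 5.38 in treated mice and fell by 4.85 ± 0.25 (adjusted p = 1.07e-07). Its close relative Hnf4a fell by only 1.44 and the intestinal master factor Cdx2 by 1.26, both chosen after their values were seen. Vdr, the receptor for vitamin D, fell by 3.39 ± 0.27 and Ppargc1a, a coactivator that drives mitochondrial genes, fell by 2.93 ± 0.21. Foxa1, a factor of secretory and foregut-type epithelium, rose by 1.19 ± 0.25.

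**Figure D3:**
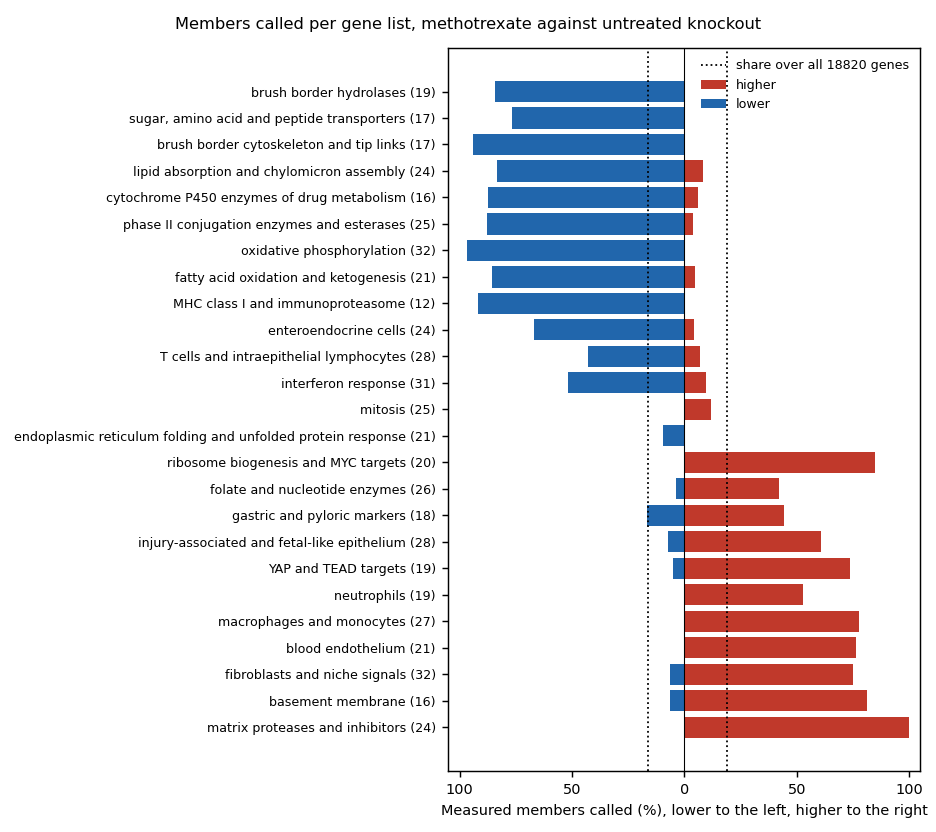
Share of the measured members of 25 gene lists that limma called higher (red, to the right) or lower (blue, to the left) after methotrexate in knockout jejunum, with the number of measured members in brackets. The dotted lines mark the shares over all 18820 genes, 18.8% higher and 16.0% lower. Enterocyte lists lie almost wholly on the left, matrix, stromal and macrophage lists on the right, and mitosis and endoplasmic reticulum folding within the dotted lines.

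Within several gene families 1 member fell while a relative rose. Alpi, the alkaline phosphatase of the intestinal brush border, read 11.50, 12.32 and 12.22 in untreated and 6.65, 9.37 and 10.83 in treated mice and fell by 3.06 (chosen after its values were seen), or by 1.91 without treated replicate 1, and was not called with only the knockout arrays in the fit (adjusted p = 0.0599 by limma). Alpl, the tissue-nonspecific form, read 4.15, 4.66 and 4.64 in untreated and 9.60, 9.83 and 9.93 in treated mice and rose by 5.31 ± 0.16 (adjusted p = 3.68e-09). All treated Alpl values lay above all untreated ones, and treated replicate 1 was the lowest treated array for each gene. Among glucose carriers Slc2a2 fell, as given above, while Slc2a1, the carrier of most proliferating cells, rose from 7.92, 8.24 and 8.37 to 9.93, 10.27 and 10.27, by 1.98. The glucose-trapping enzymes Hk1 and Hk2 rose by 1.59 and 1.68. Of 13 ABC efflux pumps 5 rose and 7 fell. Abcc2, which exports conjugates and methotrexate across the brush border, fell by 3.40 ± 0.38, while Abcc4, which also exports methotrexate, rose by 2.47 ± 0.19 and Abcc1 rose by 1.71 ± 0.20. Among enzymes that make retinoic acid Aldh1a1 fell by 2.53 ± 0.23 and Aldh1a2 rose by 2.49 ± 0.10. Of 27 junction genes 16 fell and 1 rose. Cldn15, a claudin that forms sodium channels between enterocytes, fell by 2.83 ± 0.33, and the 1 that rose was Cldn2, the pore-forming claudin of crypts, by 1.06. Krt20, a keratin of mature cells, fell by 2.18 ± 0.28, whereas Krt7, a keratin of simple ducts, rose by 2.11 ± 0.21. Fut2, which adds terminal fucose to surface glycans, rose by 4.11 ± 0.50.

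**Figure D4:**
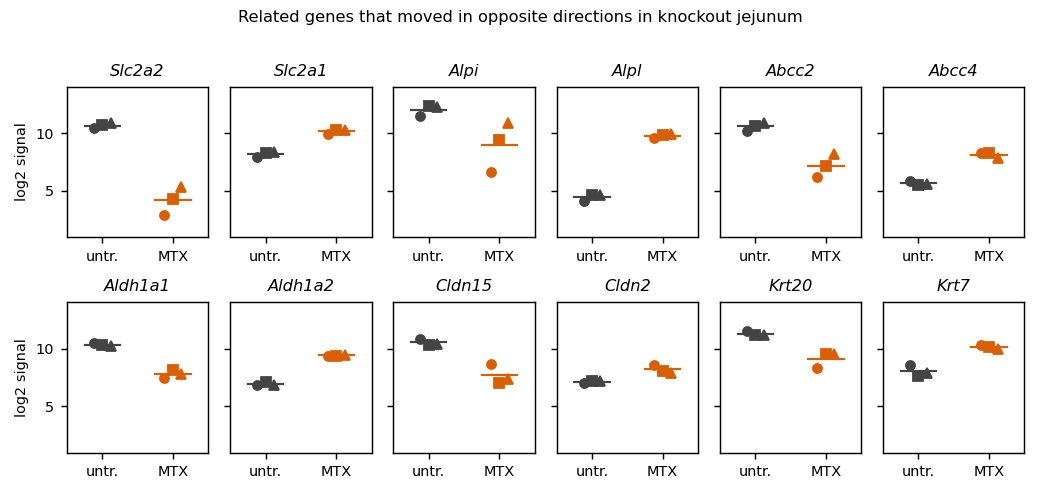
Log2 signal (vertical axis) of 12 genes in each untreated (dark, left) and methotrexate-treated (orange, right) knockout mouse, in pairs of related genes. Circles, squares and triangles are replicates 1, 2 and 3, and horizontal lines are means of 3 mice. The first gene of each pair fell and the second rose, for example Slc2a2 by 6.43 down and Slc2a1 by 1.98 up, and in none of the 12 did the groups overlap.

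Crypt and growth genes did not move as 1 group. Genes of ribosome biogenesis and other MYC targets rose in 17 of 20 cases and fell in 0, median 1.11, and without replicate 1 of both groups in 15 of 20, median 0.85. Mybbp1a, a nucleolar protein, read 7.31, 7.25 and 7.35 in untreated and 9.42, 8.62 and 8.66 in treated mice and rose by 1.59 ± 0.23. Rrs1 and Gnl3, which act in ribosome assembly and nucleolar growth control, rose by 1.55 and 1.43. The ribosomal proteins themselves showed 10 of 16 higher by a median of 0.38, but 0 of 16 with arrays centred on their median and 0 without replicate 1 of both groups. Leaving out untreated replicate 1 alone gave 1, and treated replicate 1, untreated replicate 2 or treated replicate 3 alone gave 4, 4 and 5.

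Of 26 genes of folate and nucleotide metabolism, the pathway that methotrexate blocks, 11 rose and 1 fell, the fall being that of Slc46a1. Ctps, the cytidine triphosphate synthase, read 5.76, 5.32 and 5.19 in untreated and 8.11, 7.44 and 7.23 in treated mice and rose by 2.17 ± 0.28 (adjusted p = 9.76e-05). Mthfd1l, which releases formate from mitochondria for purine synthesis, rose by 2.08 ± 0.27, and Rrm2, the regulated subunit of ribonucleotide reductase, rose by 1.73 ± 0.29. Without replicate 1 of both groups 7 rose and 2 fell. Shmt2, which feeds 1-carbon units into folate and rose by 1.05, was not called there (0.52, adjusted p = 0.205 by limma). It was not called either without untreated replicate 1 (adjusted p = 0.085) or treated replicate 1 (adjusted p = 0.0805). Division genes were mostly not called: 6 of 26 genes of DNA replication and 3 of 25 of mitosis rose and 0 fell. Treated replicate 1 stood highest, with a mean over the mitosis genes of 8.02 against 6.99 and 6.67, and without it the median change fell from 0.49 to 0.14 for mitosis and from 0.59 to 0.20 for replication, with 1 and 3 genes higher. Counts for mitosis lay between 1 and 5 with any 1 array left out, 5 without untreated replicate 1 or treated replicate 3 and 1 without untreated replicate 2 or 3. Those for replication were 3 without untreated replicate 2 or 3 and 12 without treated replicate 3.

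Stem cell markers moved in both directions. Olfm4, a secreted glycoprotein of crypt base cells, read 11.31, 10.83 and 10.78 in untreated and 7.35, 5.79 and 5.22 in treated mice and fell by 4.85 ± 0.41 (adjusted p = 3.54e-06). Smoc2 rose by 1.88 ± 0.13 and Cd44, the hyaluronan receptor of crypt cells, rose by 2.10 ± 0.19. Of the 17 genes 5 rose and 4 fell, not far from the shares of 18.8% and 16.0% over all genes. The lower ones included Lgr5 (-1.0). Its call was lost without any 1 of untreated replicates 1 and 2 and treated replicates 2 and 3 (adjusted p from 0.059 to 0.109 by limma). It was also lost with only the knockout arrays in the fit (adjusted p = 0.072 by limma). With arrays centred the split was 4 higher and 5 lower. Without untreated replicate 2 it was 4 and 2. Of secretory lineages, enteroendocrine cells had 16 of 24 genes lower and 1 higher, median -0.90, and tuft cells 7 of 16 lower and 1 higher. Gcg, the precursor of glucagon-like peptides, read 8.19, 9.97 and 9.14 in untreated and 5.28, 5.81 and 6.98 in treated mice and fell by 3.08 ± 0.50. Rgs13 and Trpm5, of tuft cells, fell by 2.93 and 2.45. Paneth cell genes had 2 of 9 higher and 0 lower. These were Pla2g2a (2.78) and Mmp7 (1.85), the latter not called without untreated replicate 3 (1.51, adjusted p = 0.0503 by limma). Goblet cells had 4 of 16 higher and 2 lower, but 1 higher and 2 lower without treated replicate 1 or untreated replicate 2, 2 and 2 without untreated replicate 3, 2 and 1 without treated replicate 2, 1 and 2 with arrays centred, and 5 and 1 without replicate 1 of both groups. Because whole tissue was measured, fewer cells of a type and less RNA per cell cannot be told apart in any of these lists.

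Injury-associated and fetal-like epithelial genes rose in 17 of 28 cases and fell in 2, median 1.91, and targets of the growth regulators YAP and TEAD in 14 of 19, with 1 fall and a median of 1.23. Ereg, a ligand of the EGF receptor, read 6.05, 5.50 and 5.71 in untreated and 10.28, 10.11 and 10.32 in treated mice and rose by 4.49 ± 0.29 (adjusted p = 4.72e-07). The annexin gene Anxa10 rose by 5.56 ± 0.59, and Msln, which encodes mesothelin, rose by 4.84 ± 0.19. Mesothelium also makes mesothelin, and of 14 mesothelial genes 7 rose. Among other markers of that tissue, Wt1 read 3.34, 3.17 and 3.20 in untreated and 3.95, 4.01 and 3.89 in treated mice. Upk3b and Lrrn4 changed by -0.04 and 0.33 and were not called. Wt1, Upk3b and Lrrn4 were chosen after their values were seen. The part of mesothelium in the rise of Msln was not tested. Ccn2, a matricellular protein and classic YAP target, rose by 2.78 ± 0.34, the transcription factor Tead4 rose by 2.56 ± 0.17 and F3, the tissue factor that starts coagulation, rose by 2.71 ± 0.25. Gja1, which encodes connexin 43, moved with them, at 7.40, 7.17 and 7.18 in untreated and 9.78, 9.67 and 9.69 in treated mice.

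Several genes normally made by stomach epithelium were higher. Of 18 gastric and pyloric markers 8 rose and 3 fell. Anxa10 read 2.59, 3.88 and 3.92 in untreated and 8.67, 9.28 and 9.10 in treated mice. Vsig1, an adhesion protein of gastric epithelium, read 2.07, 2.40 and 2.29 in untreated and 6.08, 6.47 and 5.70 in treated mice and rose by 3.83 ± 0.17 (adjusted p = 4.16e-08). All 3 treated mice were above all 3 untreated mice for both. Tff1, the trefoil peptide of gastric surface cells, rose by 3.37 ± 0.36. Among members chosen after their values were seen, the gastrokine genes Gkn1 and Gkn2 rose by 2.49 and 2.83, the pepsinogen gene Pgc by 2.17 and the gastric claudin gene Cldn18 by 1.85. The genes of acid-secreting cells Atp4a and Atp4b, the intrinsic factor gene Cblif and the surface mucin gene Muc5ac were not called, and in treated mice Atp4b stood at 2.80, 2.86 and 3.09 and Muc5ac at 2.83, 2.96 and 2.91. Lower were Capn9 (-2.22), Gkn3 (-2.03) and Capn8 (-1.01). Without replicate 1 of both groups 7 rose and 3 fell.

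**Figure D5:**
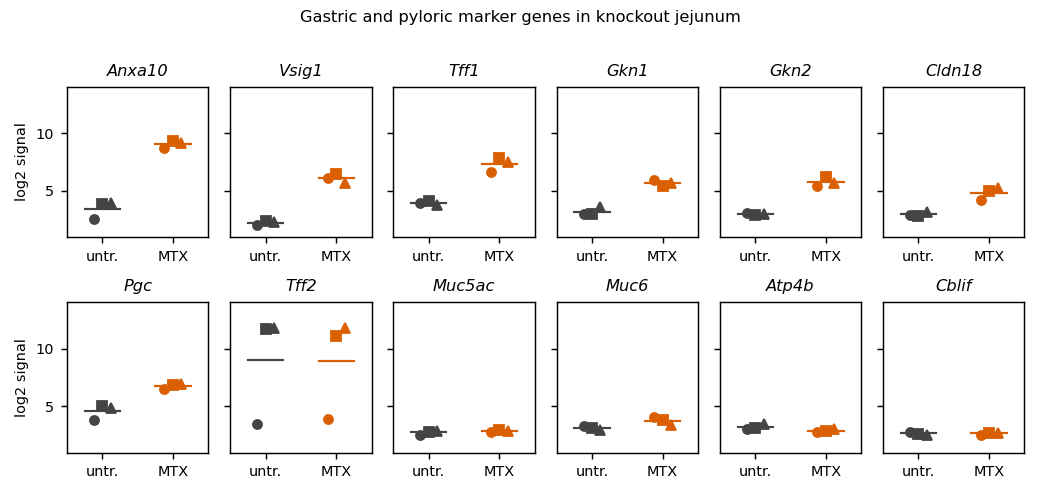
Log2 signal (vertical axis) of 12 gastric and pyloric marker genes in each untreated (dark, left) and methotrexate-treated (orange, right) knockout mouse. Circles, squares and triangles are replicates 1, 2 and 3, and lines are means of 3 mice. The first 7 genes were higher in every treated mouse, Tff2 was low in both first replicates, and Muc5ac, Atp4b and Cblif stayed below 4 in all 6 mice.

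Genes of connective tissue rose broadly. Of 24 matrix proteases and their inhibitors 24 rose, with a median of 2.31, and 23 rose without replicate 1 of both groups and 23 with arrays centred. Mmp3, stromelysin, read 3.05, 3.66 and 3.44 in untreated and 9.43, 8.92 and 8.78 in treated mice and rose by 5.66 ± 0.20 (adjusted p = 1.17e-08). Its inhibitor Timp1 read 4.01, 3.97 and 4.12 in untreated and 8.85, 8.35 and 8.97 in treated mice and rose by 4.69 ± 0.18. For both, every treated mouse lay well above every untreated one. Plat, the tissue plasminogen activator, rose by 4.21 ± 0.16. Basement membrane genes rose in 13 of 16 cases, with Agrn (-0.43) the 1 lower, not called without replicate 1 of both groups (adjusted p = 0.106 by limma), and a median of 2.22. Lama1, a laminin chain, read 4.61, 4.06 and 3.93 in untreated and 8.12, 7.96 and 8.11 in treated mice and rose by 3.86 ± 0.17, and Col18a1, the source of endostatin, rose by 3.70 ± 0.11. Of 15 interstitial collagens 12 rose and 0 fell, by 2.97 for Col12a1 and 2.28 for Col1a1. Lox, which crosslinks collagen and elastin, rose by 4.04 ± 0.18, and Vcan, the large proteoglycan versican, rose by 3.80 ± 0.19. The exceptions among 23 matrix glycoproteins and crosslinking enzymes were Fbln1 (-1.55) and Ogn (-0.90), the latter at -0.57 without untreated replicate 1 and not called with only the knockout arrays in the fit (adjusted p = 0.0583 by limma). Igfbp5, which binds insulin-like growth factors in the matrix, read 6.52, 6.0 and 6.57 in untreated and 11.19, 11.15 and 11.16 in treated mice and rose by 4.80 ± 0.13.

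Signals by which fibroblasts support crypts rose with the matrix. Of 32 fibroblast and niche genes 24 rose and 2 fell, with a median of 1.15. Nrg1, a ligand of ERBB receptors, read 5.48, 5.19 and 5.32 in untreated and 8.86, 8.85 and 9.0 in treated mice and rose by 3.57 ± 0.24 (adjusted p = 6.27e-07). Grem1, which blocks bone morphogenetic proteins, rose by 3.32 ± 0.22 and Frzb, a secreted Wnt binder, rose by 3.42 ± 0.16. Hgf, the growth factor that acts through the receptor MET, rose by 4.0 ± 0.19. The epithelial hedgehog ligand Ihh fell by 2.47 ± 0.24 and its target Hhip fell by 1.42, while the transducers Gli2 and Gli3 rose by 1.28 and 1.53. Of 21 genes of blood endothelium 16 rose and 0 fell, median 0.92, and of 8 lymphatic genes 7 rose. Selp, the P-selectin that catches leukocytes, read 4.09, 4.2 and 3.88 in untreated and 8.42, 6.67 and 6.90 in treated mice and rose by 3.27 ± 0.34, and Vcam1 rose by 2.36 ± 0.13. Pericyte genes rose in 9 of 10 cases, led by Kcnj8, a potassium channel, which rose by 3.43 ± 0.23. Smooth muscle genes were less uniform, with 4 of 15 higher and 1 lower. That count was 9 and 0 without untreated replicate 1 or replicate 1 of both groups, and 1 or 2 were higher without any other 1 array. With arrays centred 1 was higher and 1 lower.

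Immune cell lists differed. Macrophage and monocyte genes rose in 21 of 27 cases and fell in 0, median 1.57, and in 21 of 27 without replicate 1 of both groups. Gpnmb, a glycoprotein of lipid-laden macrophages, read 4.08, 4.72 and 4.61 in untreated and 7.82, 9.12 and 8.54 in treated mice and rose by 4.02 ± 0.29 (adjusted p = 1.06e-06). Mrc1 and Cd163, scavenger receptors of resident macrophages, rose by 3.85 and 3.48. Neutrophil genes rose in 10 of 19 cases. Mmp8, the neutrophil collagenase, read 2.43, 2.42 and 2.48 in untreated and 7.51, 7.02 and 6.90 in treated mice and rose by 4.70 ± 0.14. Treated replicate 1 stood apart, with a mean over the 19 genes of 6.13 against 4.53 and 4.73, and the list's median fell from 1.5 to 0.71 without it and to 0.67 without both first replicates, with 11 genes higher in each case. S100a8, a calcium-binding protein of neutrophils, read 2.73, 2.70 and 2.82 in untreated and 6.88, 3.20 and 3.16 in treated mice and was not called (chosen after its values were seen). Among the 28 T cell and intraepithelial lymphocyte genes measured, 12 fell and 2 rose. Gzmb, a cytotoxic granule protease, fell by 2.77 ± 0.25, Cd3g, a subunit of the T cell receptor complex, fell by 2.24 ± 0.29 and the integrin chain gene Itgae fell by 0.99 ± 0.14. Cd4 was among the 2 that rose (0.88), but its call was lost without untreated replicates 1, 2 or 3 or treated replicates 2 or 3 (adjusted p from 0.0592 to 0.148 by limma), with arrays centred (adjusted p = 0.0775 by limma) and with only the knockout arrays in the fit (adjusted p = 0.139 by limma). Without treated replicate 1 its change was 1.34. Ctla4, an inhibitory receptor of T cells, rose by 1.57 ± 0.17. Of 12 dendritic cell genes 4 rose and 5 fell, with a median of -0.18, and 4 and 3 without replicate 1 of both groups. With any 1 array left out 2 or 3 of them rose and 2 or 3 fell. Of 17 genes of mast cells and eosinophils 6 rose and 0 fell.

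Genes of MHC class I and the immunoproteasome were mostly lower, by unequal amounts. H2-T3, the thymus leukaemia antigen that binds CD8 alpha homodimers, read 9.22, 9.21 and 9.11 in untreated and 3.24, 3.01 and 3.64 in treated mice and fell by 5.88 ± 0.18 (adjusted p = 3.68e-09). It was the largest fall among 12 genes of MHC class I and the immunoproteasome. Of these 11 fell and 0 rose, median -1.19, and 7 fell without replicate 1 of both groups. Falls with all arrays were small for B2m (-0.35), H2-K1 (-0.56), Tap1 (-0.78) and Tap2 (-0.67), all chosen after their values were seen. These 4 were not called without replicate 1 of both groups (adjusted p from 0.0632 to 0.23 by limma). Of 28 cytokines 10 rose and 2 fell, the latter being the interleukins Il15 and Il18, which sustain and activate intraepithelial lymphocytes and fell by 2.43 and 2.68. Of 29 chemokines 15 rose and 6 fell, and the falls included those of Ccl25 and Ccl28, which draw T cells and plasma cells to the gut, by 3.73 and 3.94. Of 15 genes of plasma cells and IgA transport, a list with Ccl25 and Ccl28 in it too, 2 rose and 7 fell, and Pigr, which carries IgA into the lumen, fell by 3.80 ± 0.23. Interferon response genes fell in 16 of 31 cases and rose in 3, led by Cmpk2 (-3.41). Of 9 MHC class II genes 0 were called, with a median of -0.41. H2-Aa read 9.69, 9.47 and 9.42 in untreated and 8.07, 9.71 and 9.71 in treated mice, lowest in treated replicate 1. Without treated replicate 1 the median was -0.03 with 1 gene higher, without treated replicate 2 it was -0.69, and without replicate 1 of both groups it was 0.26 with 2 higher. Sectm1b, an epithelial ligand of the T cell protein CD7, read 11.01, 10.98 and 10.83 in untreated and 3.27, 3.69 and 4.41 in treated mice and fell by 7.15 ± 0.31.

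Innate sensors changed in both directions, with 14 of 30 Toll-like receptors, adaptors and inflammasome genes higher and 5 lower. The inflammasome sensor Nlrp6, which controls goblet cell secretion, read 9.47, 9.18 and 9.06 in untreated and 5.87, 3.46 and 3.07 in treated mice and fell by 5.10 ± 0.55 (adjusted p = 2.28e-05), its adaptor Pycard fell by 3.06 ± 0.30 and the protease Casp1 fell by 2.35 ± 0.26. Among those that rose, Tlr13, a sensor of bacterial ribosomal RNA, rose by 2.36 ± 0.27, Irak3, which damps the signal, rose by 2.51 ± 0.19, and Lbp, which binds lipopolysaccharide, rose by 2.55 ± 0.28. Tlr2 rose by 0.85 ± 0.23, but was not called without untreated replicate 1 (0.63, adjusted p = 0.0522 by limma), with only the knockout arrays in the fit (adjusted p = 0.0715) or without replicate 1 of both groups, where its change was 0.36 (adjusted p = 0.0626). Among the chemokines that rose, Cxcl13, which organises B cell follicles, rose by 3.55 ± 0.57, and the eosinophil attractant Ccl11 rose by 3.0 ± 0.17. Among the cytokines that rose, Il33, an alarm signal of epithelium and stroma, read 6.89, 5.24 and 5.59 in untreated and 9.42, 9.58 and 9.77 in treated mice and rose by 3.69 ± 0.40. Il11, a fibroblast cytokine of the interleukin-6 family, rose by 2.97 ± 0.29 and the receptor antagonist Il1rn rose by 3.40 ± 0.14. Downstream in that family Osmr rose by 2.75 ± 0.10, Socs3 rose by 2.16 ± 0.32 and the factor Cebpd rose by 2.94 ± 0.18.

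Acute-phase genes included large rises, but not every member was called. Saa3 read 2.44, 2.65 and 2.70 in untreated and 10.62, 8.13 and 8.60 in treated mice and rose by 6.52 ± 0.48 (adjusted p = 1.39e-06). Every treated value lay far above every untreated one, and treated replicate 1 was the highest. Serpina3n, an inhibitor of serine proteases, read 5.67, 5.26 and 5.20 in untreated and 11.26, 11.54 and 11.42 in treated mice and rose by 6.03 ± 0.28. Lcn2, which withholds iron from bacteria, read 5.06, 4.80 and 4.89 in untreated and 10.78, 11.03 and 10.33 in treated mice and rose by 5.79 ± 0.21, and Lrg1, a glycoprotein that acts on vessels, rose by 5.23 ± 0.44. Of 21 acute-phase genes 10 rose and 0 fell. Those not called included the hepatic members Orm1, Saa2 and Fgb (chosen after their values were seen), at -0.01, 0.01 and 0.25. By contrast the haptoglobin gene Hp, also hepatic, read 3.22, 3.44 and 3.54 in untreated and 8.65, 8.09 and 8.14 in treated mice. Hp rose by 4.89 ± 0.34. Duoxa2 and Duox2, which make hydrogen peroxide at the epithelial surface, rose by 2.65 and 1.99. Duox2 was not called without untreated replicate 2 (1.53, adjusted p = 0.0536 by limma). Of 20 prostaglandin genes 9 rose and 3 fell. Ptgs2, the inducible cyclooxygenase, rose by 2.01 ± 0.28 and Ptges rose by 2.30 ± 0.13, while Hpgd, which breaks prostaglandin E2 down, fell by 3.28 ± 0.17. Of 19 genes of coagulation and fibrinolysis 11 rose and 2 fell, and Plaur, the urokinase receptor, rose by 3.67 ± 0.25.

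Stress responses differed by pathway. Genes of endoplasmic reticulum folding and the unfolded protein response had 0 of 21 higher and 2 lower, 4 lower without untreated replicate 1, and 1 higher and 4 lower without both first replicates. The lower genes were Edem1 (-0.79) and Dnajb9 (-0.52), neither of which was called without untreated replicate 2 or 3, nor Edem1 without treated replicate 1 or with only the knockout arrays in the fit, nor Dnajb9 without treated replicate 2 or 3 (adjusted p from 0.0589 to 0.101 by limma). Targets of p53 had 12 of 29 higher and 4 lower, with Phlda3, which restrains AKT signalling, at 5.26, 5.08 and 5.13 in untreated and 7.72, 8.0 and 7.95 in treated mice. It rose by 2.73 ± 0.13, whereas the cell cycle inhibitor Cdkn1a changed by -0.18 and was not called (chosen after its values were seen). Oxidant defence had 7 of 18 genes higher and 7 lower. Hmox1, which degrades haem, rose by 2.99 ± 0.45 and Slc7a11, the cystine carrier, rose by 2.86 ± 0.34, while Cat, the catalase of peroxisomes, fell by 2.59 ± 0.14. Among 15 genes that respond to glucocorticoids 6 rose and 2 fell. Fkbp5, a chaperone that limits the glucocorticoid receptor, read 4.91, 4.96 and 4.82 in untreated and 8.29, 8.84 and 8.93 in treated mice and rose by 3.79 ± 0.33 (adjusted p = 4.24e-06). Zbtb16 rose by 3.59 ± 0.38 and Per1, also a clock gene, rose by 2.37 ± 0.47, while the receptor gene Nr3c1 fell by 1.26 ± 0.16. Of 16 clock genes 4 rose and 3 fell, and 7 rose without treated replicate 1 or without both first replicates. With arrays centred 3 rose and 3 fell. Hours of sampling are not recorded in the labels.

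Of the olfactory receptor genes, read by mostly dim probe sets, 2 of 990 rose and 13 fell, and 93 fell with arrays centred on their median.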

How the data were processed

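RNA of proximal jejunum from 3 untreated and 3 methotrexate-treated knockout mice was compared, with 6 wild-type arrays in the same fit. The authors deposited log2 signals per probe set from RMA (robust multi-array average), per the submitters' processing notes. Its version, and the array's annotation and build, are not given in the sources used. No further scaling was applied. Of 35556 probe sets 21218 had 1 gene symbol, 1881 several and 12457 none here, and 21185 of the 21218 matched the RefSeq gene table (GRCm38.p6), with 0 symbols changed. This gave 18820 genes, 1386 of them with more than 1 probe set, for which the brightest on average was taken. In 10 genes, none of them named in the results above, probe sets were called in opposite directions. At least Prom1 of these (0.62 and -0.45) is counted in a gene list, there by its brightest probe set alone. Gene names are those of the array annotation and can be old, and probe sets of related genes may cross-hybridise.

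The test was that of limma 3.58.1 (lmFit, then eBayes, under R 4.3.3), over all 12 arrays with 4 group means and 8 residual degrees of freedom. P-values were adjusted after Benjamini and Hochberg over the 18820 genes, with a threshold of 0.05 and no fold minimum, and they measure the spread between these mice. Fitting all groups assumes the same spread in each. The number of arrays limits the precision. An exact permutation test of 3 against 3 mice cannot give a p below 0.10, so the model across genes was used. The fit was tested on simulated tables. The 91 gene lists, 18 families by symbol, motifs and comparison were chosen with earlier results of these data known, some genes are in several lists, and lists are described by counts and medians without a test.

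Genes are named by a rule: the 15 largest rises and falls that were called and free of overlap between the groups, up to 3 called rises and 3 called falls per list (or the 2 brightest members), Tlr2, the 8 genes compared between genotypes, and the 10 genes outside the acinar list that varied most among treated mice. Any other gene is marked in the text, apart from the markers of gut region. Alternatives were a log2 fold minimum of 1, dim genes left out, probe sets averaged per gene, all probe sets tested, quantile normalisation, median centring, the knockout arrays alone, a replicate block, a trended robust variance, array weights, the acinar level as a covariate and each knockout array left out. Added after the data were seen were both first replicates left out, and the knockout arrays alone with a block. Same-numbered knockout arrays deviated together (correlations 0.489, 0.273 and 0.412), which by the rule used pairs them, although the labels give no shared litter or day. The crossed values of replicates 2 and 3 were as high (0.396 and 0.242), and the first replicates are the 2 arrays low in pancreatic RNA.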

Additional observations from a re-analysis of the deposited data

Results flagged for a closer look

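For 8 genes the methotrexate effect in knockout mice was set against that in wild-type mice by limma's interaction test, and for 7 of them the effects differed. Over all genes, 23.8% passed this test, so a difference was common in these arrays. Lct, Slc2a2, Saa3, Lcn2 and Timp1 were among the largest falls and rises in knockout mice. The difference tested contains the knockout change, so for these genes a pass was more likely beforehand. The comparison was also chosen with earlier results of these data known. The 7 of 8 therefore cannot be read against the 23.8%. Lct differed by -7.05 ± 0.50 on the log2 scale (knockout effect minus wild-type effect, adjusted p = 3.08e-06 by limma), as it changed by -0.76 ± 0.35 in wild-type mice. Slc2a2 differed by -6.38 ± 0.64 (adjusted p = 3.46e-05 by limma) and the interferon-induced gene Ifit1 by -3.19 ± 0.50 (adjusted p = 0.000658 by limma). Saa3 differed by 6.50 ± 0.68 (adjusted p = 4.59e-05 by limma), and its 6 wild-type values lay between 2.48 and 2.98. Lcn2 differed by 5.09 ± 0.30 (adjusted p = 1.05e-06 by limma) and Timp1 by 4.59 ± 0.25 (adjusted p = 7.29e-07 by limma). Cd8a fell in both genotypes, by 2.16 in knockout and 1.30 in wild-type mice, with a difference of -0.86 ± 0.26 (adjusted p = 0.0335 by limma). Mki67 differed by -0.08 ± 0.43 (adjusted p = 0.931 by limma). Pancreatic signal was high in 1 of the 3 treated wild-type arrays and in 2 of the 3 treated knockout arrays, and its part in these differences was not tested.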

How the results depend on the processing

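Between 5339 genes (knockout arrays alone) and 9110 (array weights) were called in the settings run without a fold minimum, against 6549. A log2 fold minimum of 1 left 2792, of which 1527 were higher and 1265 lower. For the interaction it left 2845 of 4479, and array weights gave 7474. With 1 knockout array left out, 5529 to 6458 genes were called, 2901 to 3471 higher and 2570 to 3040 lower, and 3980 to 5165 in the interaction. With the replicate number as a block, which pairs same-numbered arrays, 6455 genes were called and 331 of the 6549 calls were lost. Of the 6549, 4338 were called in the same direction in all 16 settings compared gene by gene, and 5 had another direction in at least 1. Of 409 named genes that were called, 332 kept the call in every setting compared for single genes and 59 lost it with 1 array left out. The log2 fold minimum, the fit of all probe sets and the permutation test were not among those settings. Without both first replicates 6393 genes were called, and 976 calls were lost. The cause of these losses was not tested. Arrays bound what can be seen at low signal, and values near the floor, as those of Saa3 before treatment, have no reliable order.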
